A study of Mus musculus with 8 samples.

Results

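Retinoic acid is the vitamin A derivative that the embryo makes in the trunk and removes in the growing limb bud, and the 10 genes described here make, clear, carry or sense it: Aldh1a2, Cyp26a1, Cyp26b1, Cyp26c1, Rara, Rarb, Rarg, Rxra, Crabp1 and Crabp2. They were taken as a gene list, from 22208 protein-coding genes of the mouse annotation, and every SMAD4 peak whose centre lay within 100 kb of the 5′ end of one of them was collected. This gave 2 of the 2073 peaks mapped at E9.5 and 15 of the 6185 peaks mapped at E10.5. SMAD4 is the common partner of the receptor-activated SMAD proteins, which carry BMP and TGFβ signals to the DNA.

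The peaks come from ChIP-seq of SMAD4 in mouse limb buds, with 2 ChIP samples and 2 input DNA samples per stage. All 8 samples, inputs included, were of the NMRI strain and of the genotype named Smad4Flag, in which both copies of the endogenous Smad4 gene carry a 3xFLAG tag, and the chromatin was precipitated with the M2 antibody against FLAG. No treatment is named for any of them. The E9.5 samples were forelimb buds with trunk tissue still attached, dated E9.75 in the protocol and pooled from about 80 embryos per replicate. The E10.5 samples were fore- and hindlimb buds pooled from about 100 embryos per replicate, although the source label names forelimb buds throughout. Stage and dissected tissue therefore cannot be told apart. Each pool held all cell types of the dissected tissue, so that a peak in a small group of cells and a weak peak in all cells cannot be distinguished, and peak lists hold no marker levels with which the labelled tissue could be checked. The deposited values are 1 combined list per stage, so no error between replicates can be given, no difference was tested, and counts of genes with a peak, or of peaks with a feature, are read against the same share of all protein-coding genes or of the whole list. The E10.5 list was longer and its peaks were wider, with a median of 2552 bp against 1244 bp at E9.5. As the sequencing depth is unknown, the absence of a peak does not mean the absence of SMAD4.

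In the limb field, ALDH1A2 of the trunk and flank mesoderm oxidises retinaldehyde to retinoic acid, and the CYP26 enzymes oxidise retinoic acid further to inactive products. CYP26B1 does this in the distal mesenchyme of the limb bud and keeps the distal domain low in retinoic acid. Retinoic acid binds the receptors RARα, RARβ and RARγ, which sit on DNA as heterodimers with RXR at direct repeats of short half-sites, while the cellular binding proteins CRABP1 and CRABP2 hold it in the cytoplasm or hand it to the enzymes and receptors. Cyp26a1 and Rarb are textbook target genes of retinoic acid itself, through repeats in their own promoters.

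The sequences at which the SMAD4 peaks and the retinoic acid circuit could be read side by side are shown first, in mm9, 5′ to 3′ on the strand named, with the matched letters in capitals. Direct repeats were searched with the half-site AGGTCA, its variant GGGTCA, the variant AGTTCA and the variant GGTTCA, separated by 5, 2 or 1 bases (DR5, DR2 and DR1), on both strands. The first pair are the DR5 of the Rarb and Cyp26a1 promoters, at 45 and 24 bases before the RefSeq start, shown because 0 of the peaks of either list covered these promoters. Of the other 4, 3 are the repeats under a SMAD4 peak within 100 kb of a gene of the set. The Rarb repeat lay under a peak inside the gene but 255 kb from its outermost 5′ end. Repeats under other peaks beyond 100 kb are not shown.
Rarb promoter, chr14:17408020-17408049, minus strand: gggaagGGTTCACCGAAAGTTCActcgcat
Cyp26a1 promoter, chr19:37772260-37772289, minus strand: acaaattAGTTCACCCAAAGTTCAtcttta
Cyp26b1 peak at E10.5, chr6:84516622-84516651, plus strand: tcaggaAGGTCAGGGTAAGGTCAtgcccag
Rarb intron peak at E9.5, chr14:17396976-17397005, plus strand: tgacacatGGGTCATGAGGTCAtccaccat
Rxra downstream peak at E10.5, chr2:27628499-27628528, minus strand: agtgggctgAGGTCAGAGGTCAcctaccag
Rara intron peak at E10.5, chr11:98819616-98819645, minus strand: gggaacttaAGTTCAAGGGTCAatggataa

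The letters that SMAD proteins are known to contact are the SMAD box CAGAC, its extended form CAGACC (which contains CAGAC) and the GC-rich GGCGCC. The next sequences are the CAGACC and GGCGCC matches within the central 300 bp of the 15 E10.5 peaks, and the CAGAC match nearest the centre of each of the 2 E9.5 peaks. They are shown because they are the SMAD letters closest to the middle of these regions, although further E10.5 peaks held a plain CAGAC in that window and the centre of a region is not a measured summit. Such a match is a description of the sequence and not a mapped site.
Crabp1 5′ peak at E10.5, chr9:54612792-54612821, minus strand: agctgcttctaaCAGACCggacatactctc
Crabp1 5′ peak at E10.5, chr9:54612814-54612843, plus strand: aagcagctgcgaGGCGCCcgggtcccagag
Rarg downstream peak at E10.5, chr15:102047454-102047483, plus strand: ttcacgtcagcaCAGACCacactacagttg
Rxra intron peak at E10.5, chr2:27575140-27575169, minus strand: tcaaatcagcacCAGACCcttctcccgtac
Crabp1 downstream peak at E9.5, chr9:54622020-54622049, minus strand: gagacaaggggtaCAGACaaggaagctgcc
Cyp26c1 upstream peak at E9.5, chr19:37660208-37660237, minus strand: gcccctgctgagaCAGACatctttgtcctc

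Peaks lay near most of the clearance, receptor and binding protein genes at E10.5, whereas the share of the set with a peak at E9.5, from the shorter list, was near that of all genes. At E10.5, 8 of the 10 genes had a peak within 100 kb, beside 52.9% of all protein-coding genes. At E9.5, 2 of the 10 had one, Cyp26c1 and Crabp1, beside 20.5% of all protein-coding genes. Both of these had peaks at both stages, a property of 14.6% of protein-coding genes, and the remaining 6 with a peak had it at E10.5 alone, as did 38.3% of protein-coding genes. Aldh1a2 and Rarb had none at either stage. In none of the 10 did peaks of both stages overlap, whereas 5.51% of protein-coding genes had such an overlapping pair within 100 kb. The shared peaks made up 18.7% of the E9.5 list and 6.26% of the E10.5 list, so that 0 of 2 and 0 of 15 is a description of few peaks. The genes of the set had a median of 1 further protein-coding gene within 100 kb, against 3 for all protein-coding genes, with a range from 0 (Cyp26b1, Rarb and Rxra) to 9 (Crabp2).

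**Figure D1:**
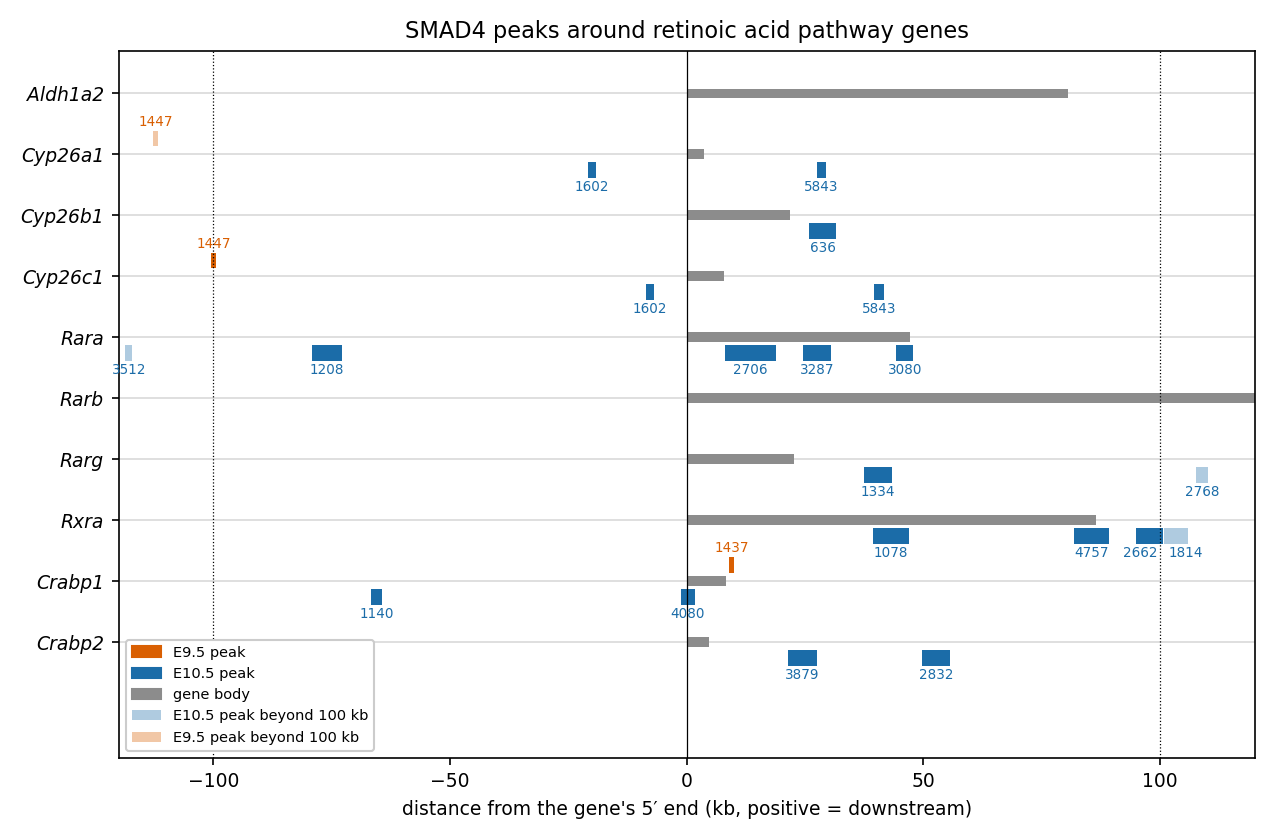
Peaks around each gene, drawn by distance from its 5′ end in kb (horizontal axis, positive is downstream), with orange boxes for E9.5 peaks, blue boxes for E10.5 peaks, paler boxes for peaks beyond 100 kb and grey bars for gene bodies. The number at each box is the score rank of the peak in its own list, and only Crabp1 has a box on its 5′ end.

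The map of peaks by gene shows that few peak centres lay close to the outermost 5′ end of a gene, a share near that of all protein-coding genes. A peak centre within 5 kb of the 5′ end was present for 1 of the 10 genes at E10.5, Crabp1, beside 13% of protein-coding genes, and for 0 of the 10 at E9.5, beside 2.64%. The median distance from the 5′ end to the nearest peak centre was 26.5 kb at E10.5 for these genes against 87.7 kb for all protein-coding genes, and 208 kb against 350 kb at E9.5. These medians rest on 10 genes and were not tested. Cyp26a1 and Cyp26c1 had the same nearest peak at both stages, and the nearest E10.5 peaks of Rarg and Crabp2 lay nearer to the 5′ ends of other genes.

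**Figure D2:**
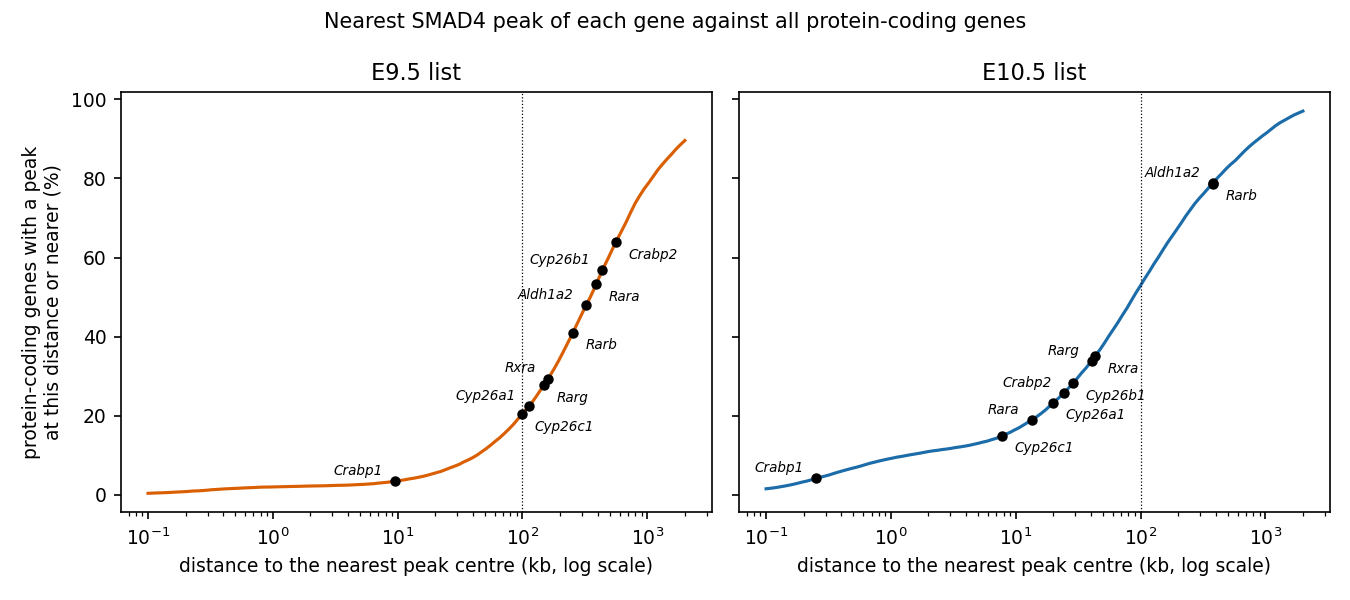
Cumulative share of protein-coding genes (vertical axis, %) whose nearest peak centre lies at a given distance or nearer (horizontal axis, kb, log scale), for the E9.5 list (left) and the E10.5 list (right), with a point for each gene of the set. The dotted line marks 100 kb, and at E10.5 Aldh1a2 and Rarb stand apart from the other 8 genes, at 378 and 379 kb.

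The gene for synthesis, Aldh1a2 (chr9:71063596-71144050, plus strand), encodes the enzyme that makes retinoic acid in the trunk. Its nearest E9.5 peak lay 323 kb upstream, at chr9:70740536-70741568, with a score of 58.5 and rank 899 of its list, and the nearest E10.5 peak lay 378 kb upstream, at chr9:70684623-70687170, with a score of 40.8 and rank 5797. Both lay in introns of Lipc, a lipase gene. Of all protein-coding genes, 52.1% were farther than this from an E9.5 peak and 21.3% from an E10.5 peak, so that Aldh1a2 was ordinary at E9.5 and among the more isolated genes at E10.5. Its RefSeq promoter held 2 GGCGCC matches, as 11.9% of the promoters of the table held at least 1, and lay in no peak.

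Of the clearance genes, Cyp26b1 had the best-ranked peak of the whole set, and Cyp26a1 and Cyp26c1, which lie next to each other, shared theirs. The Cyp26b1 peak (gene chr6:84521938-84543740, minus strand) was called at E10.5 at chr6:84512128-84517983, with a score of 94.9 and rank 636 of 6185, in the best 10.3% of the list. Its centre lay 28.7 kb from the 5′ end and 6.88 kb past the 3′ end, in intergenic sequence with no other protein-coding 5′ end nearer, and no other protein-coding gene started within 100 kb. The peak was 5856 bp wide, and 11.2% of the list was at least as wide. It held 19 SMAD boxes and 6 CAGACC, none of them in the 300 bp around the centre, and the DR5 printed above, 1581 bp from the centre. A DR5 was found in 1.24% of whole E10.5 peaks. The next E10.5 peaks around Cyp26b1 lay at 155 and 207 kb, with ranks 5634 and 5602 of 6185, and the nearest E9.5 peak lay 437 kb away.

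Cyp26a1 (chr19:37772298-37776018) and Cyp26c1 (chr19:37760071-37767888) are transcribed in the same direction, with Cyp26c1 upstream, and encode the other enzymes that inactivate retinoic acid. The peak at chr19:37751551-37753145 was called at E10.5 with a score of 72.6 and rank 1602, in an intron of Exoc6, a gene of the exocyst complex. It lay 7.72 kb upstream of Cyp26c1, which was the nearest protein-coding 5′ end, and 19.9 kb upstream of Cyp26a1. It was the narrowest of the 15 at 1595 bp and the only one of them with no CAGAC at all, although 98.2% of whole E10.5 peaks held at least 1. The second E10.5 peak, chr19:37799724-37801748, lay in intergenic sequence 28.4 kb downstream of the Cyp26a1 5′ end and 40.7 kb downstream of that of Cyp26c1. Its score of 40.1 (rank 5843) was the lowest of the set and the only one under 50, as was the case for 13.1% of the list. It held 8 CAGAC, of which 4 were CAGACC.

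The E9.5 peak of this pair, chr19:37659657-37660613, had a score of 51.9 and rank 1447 of 2073. It lay 99.9 kb upstream of the Cyp26c1 5′ end, just inside the limit of 100 kb, and 112 kb upstream of that of Cyp26a1, just outside it. Counted from the RefSeq start of Cyp26c1, which lies 0.099 kb further in, the distance is 100035 bp and the peak falls outside the limit, so that Cyp26c1 then loses its E9.5 peak and its place among the genes with peaks at both stages. The peak lay in an intron of Exoc6, whose own 5′ end was the nearest at 35.2 kb, and was separated from the first E10.5 peak by 90.9 kb. It is the only E9.5 peak that assigns Cyp26c1 to both stages.

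All 4 receptor genes but Rarb had E10.5 peaks, and those of Rara and Rxra lay in part within the genes themselves, with 3 and 2 peak centres. Rara (chr11:98789132-98836256, plus strand), which encodes RARα, had 4 peaks within 100 kb, a number reached by 5.43% of protein-coding genes. The best-scored, chr11:98710033-98716234 (score 79, rank 1208), lay 76 kb upstream over a UTR of Rapgefl1, 1.49 kb from a start of that gene, and 5 other protein-coding genes had their 5′ end within 100 kb of Rara. The other 3 lay in Rara itself. The first of these, chr11:98797205-98807944 (score 62.4, rank 2706), was 10740 bp wide, a width that 0.323% of the list reached. It held 5 of the 8 annotated GENCODE transcript starts of Rara and 3 of its 4 RefSeq starts, but not the outermost 5′ end, from which its centre lay 13.4 kb away. Measured from the nearest of these starts the centre lay 1.55 kb away, so that the distance to the gene's 5′ end alone misses the inner promoters. It contained 48 CAGAC, or 4.47 per kb, a density that 8.88% of the list reached, of which 16 were CAGACC, yet none in the 300 bp around the centre. The second, chr11:98813666-98819700 (score 58.7, rank 3287), lay in an intron 27.6 kb downstream of the 5′ end and held 17 CAGAC and the DR1 printed above, 2947 bp from its centre and close to its edge. A DR1 was found in 2.99% of whole E10.5 peaks. The last, chr11:98833430-98836982 (score 59.9, rank 3080), spanned the 3′ end of Rara, with its centre 1.05 kb before it. The nearest E9.5 peak was 388 kb away.

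**Figure D3:**
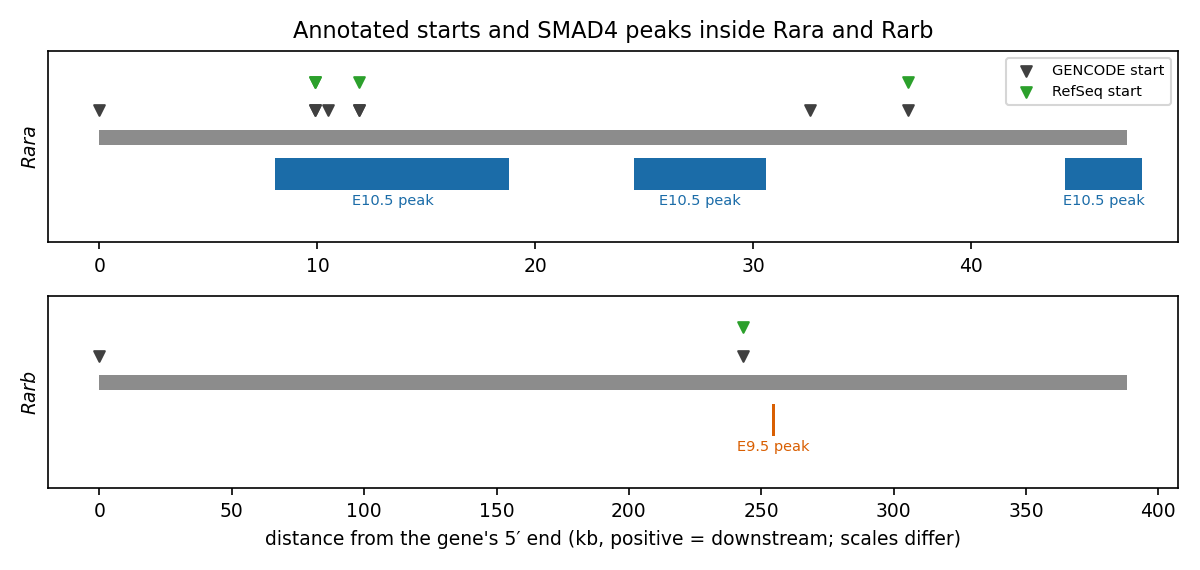
Annotated transcript starts (triangles, GENCODE in dark grey and RefSeq in green) and SMAD4 peaks (boxes, E10.5 in blue and E9.5 in orange) along Rara (top) and Rarb (bottom), by distance from the outermost 5′ end in kb on separate scales. In Rara the widest peak covers the starts between 9.88 and 11.9 kb, and in Rarb the single E9.5 peak lies 11.3 kb downstream of the inner start at 243 kb.

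Rarb (chr14:17263356-17651381, minus strand) spans 388 kb in this annotation, and its only RefSeq start lies 243 kb inside it, as the plot of annotated starts shows. The outermost 5′ end had no peak within 100 kb at either stage. An E9.5 peak was called inside the gene, in an intron at chr14:17396261-17397209, with a score of 52.9 and rank 1316, in the best 63.5% of the list. Its centre lay 255 kb from the outermost 5′ end but 11.3 kb downstream of the inner start, so that Rarb has an E9.5 peak within 100 kb when all transcript starts are used. The peak was 949 bp wide and held 3 CAGAC, of which 1 was CAGACC, and the DR2 printed above, 256 bp from its centre. A DR2 was found in 1.21% of whole E9.5 peaks. The DR5 printed for the Rarb promoter lay at that inner start, under no peak, and 0.0974% of the 32851 promoters of the table held a DR5. The nearest E10.5 peak lay 379 kb upstream of the outermost 5′ end, at chr14:18029834-18031502 (rank 4061), with 21.2% of protein-coding genes farther from one.

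Rarg (chr15:102065369-102087948, minus strand), which encodes RARγ, lies among 8 other protein-coding genes within 100 kb and had 1 peak, at E10.5. This peak, chr15:102044553-102050440 (score 76.6, rank 1334), lay 40.5 kb from the 5′ end and 17.9 kb past the 3′ end, over a coding exon of the integrin gene Itgb7, and the nearest protein-coding 5′ end was that of Zfp740 at 13.4 kb. It held 18 CAGAC, of which 4 were CAGACC, including the one printed above at 27 bp from the centre. Further peaks lay outside 100 kb of Rarg. The nearest E9.5 peak, 149 kb away on the start of Sp1, had rank 279, and a pair of peaks 213 kb away at the start of Pcbp2 overlapped between the stages, with rank 601 at E9.5 and rank 84 at E10.5. No other overlapping pair was found within 250 kb of any of the 10 genes.

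Rxra (chr2:27531960-27618477, plus strand), which encodes the RXR partner of the heterodimer, had 3 E10.5 peaks within 100 kb, a number reached by 12.5% of protein-coding genes, with no other protein-coding gene starting in this distance. The best-scored, chr2:27571229-27578949 (score 81.9, rank 1078), lay in an intron 43.1 kb from the 5′ end and 8.99 kb from an inner transcript start at 34.1 kb. It was 7721 bp wide and had the highest density of SMAD boxes of the 15 peaks, with 37 CAGAC or 4.79 per kb, a density reached by 6.08% of the list, and 14 CAGACC. The second, chr2:27613849-27621140 (score 52, rank 4757), spanned the 3′ end of the gene, with its centre 0.983 kb before it, and held 29 CAGAC. The last, chr2:27626902-27632602 (score 62.8, rank 2662), lay 11.3 kb past the 3′ end and 97.8 kb from the 5′ end, just inside the limit, and held the DR1 printed above and 3 CAGAC in the 300 bp around its centre, the most of any of the 15. A further E10.5 peak, chr2:27632758-27637911 (score 70.1, rank 1814), began after a gap of 155 bp and was just outside the limit at 103 kb. The nearest E9.5 peak lay 161 kb upstream on the start of Wdr5, with rank 189.

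A peak over the own 3′ end was thus found for both Rara and Rxra at E10.5. Of the E10.5 peaks, 8.99% spanned the 3′ end of a protein-coding gene, and 3.02% of protein-coding genes had their 3′ end in such a peak. None of the other 8 genes of the set did. This count was not among the results planned beforehand. The E10.5 peaks near the set were also wider than those of the list, with a median of 5888 against 2552 bp. Whether this width bears on the count was not tested.

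The binding protein genes had 2 E10.5 peaks each, and Crabp1 had an E9.5 peak as well. Crabp1 (chr9:54612555-54620917, plus strand) was the only gene of the set with a peak on its 5′ end. That E10.5 peak, chr9:54611397-54614217 (score 54.6, rank 4080), was centred 0.252 kb downstream of the 5′ end and covered the whole RefSeq promoter. It held 5 GGCGCC, the most of the 15 peaks, and 1 of them lay in the promoter 92 bases before the start. It was also the only one of the 15 with GGCGCC in the 300 bp around the centre, and it held 6 CAGAC, of which 4 were CAGACC. The first pair of Crabp1 sequences above lie next to each other, with CAGACC on the centre and GGCGCC 22 bp from it. The other E10.5 peak, chr9:54545939-54548247 (score 80.4, rank 1140), lay 65.5 kb upstream over the start of Dnaja4, a chaperone gene, 0.413 kb from its 5′ end. The E9.5 peak, chr9:54621532-54622631 (score 52, rank 1437 of 2073), lay 1.16 kb past the 3′ end, 9.53 kb from the 5′ end, and was separated from the E10.5 peak on the 5′ end by 7.31 kb. Crabp1 was therefore near a peak at both stages, at opposite ends of the gene, and 96.5% and 95.8% of protein-coding genes were farther from their nearest E9.5 and E10.5 peak, respectively.

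Crabp2 (chr3:87752588-87757298, plus strand) lies among 9 other protein-coding genes within 100 kb, and both of its E10.5 peaks lay nearer to other genes. The peak chr3:87773930-87780021 (score 55.6, rank 3879) lay 24.4 kb downstream over a coding exon of Nes, an intermediate filament gene, 1.98 kb from the 5′ end of Nes. The peak chr3:87802306-87808303 (score 61.6, rank 2832) lay 52.7 kb downstream and 1.03 kb upstream of Bcan, a brain proteoglycan gene. They held 23 and 16 CAGAC and 2 GGCGCC each. The nearest E9.5 peak was 559 kb away.

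**Figure D4:**
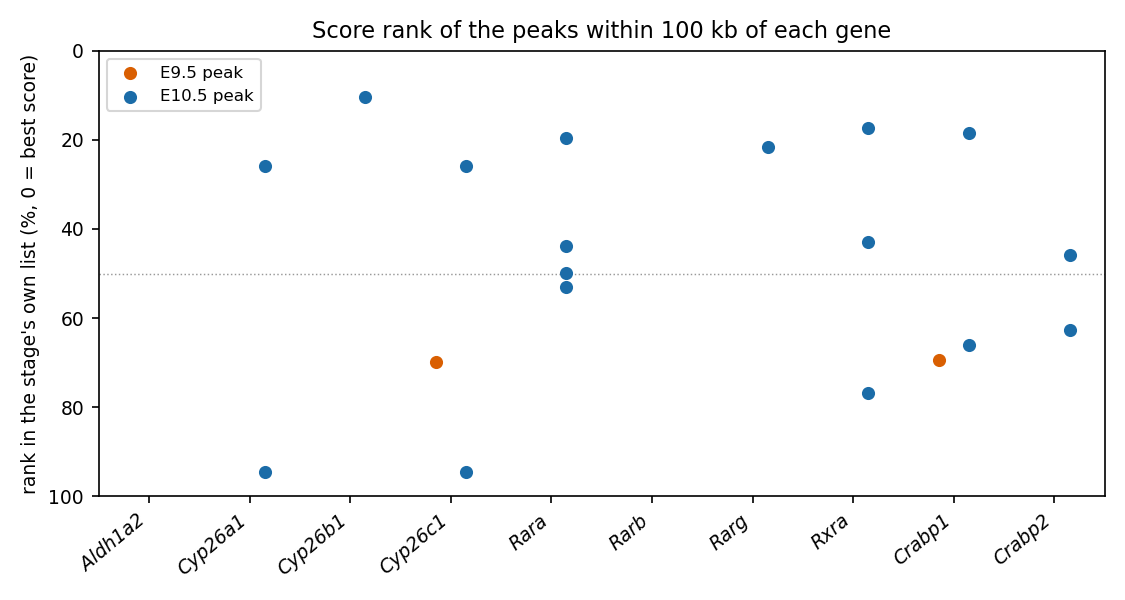
Score rank of each peak within 100 kb, as a percentage of its own list (vertical axis, 0 is the best score, axis inverted), by gene, with E9.5 in orange and E10.5 in blue and the dotted line at 50%. The best-placed point is the Cyp26b1 peak at 10.3%, and the peaks shared by Cyp26a1 and Cyp26c1 appear under both genes.

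The plot of score ranks shows that the 15 E10.5 peaks spread over most of their list, from the best 10.3% to the best 94.5%, with a median of 43.8%. Of the 15, 10 scored better than the median of the list and 5 were among its best 25%: those of Cyp26b1 and Rarg, the best of Rxra, the upstream peak of Rara and the upstream peak of Crabp1. None reached a score of 100, as 522 of the 6185 peaks did. The 2 E9.5 peaks lay close together at 69.3% and 69.8%, both below the median. The E10.5 peaks of the same genes were at 25.9% and 94.5% for Cyp26c1 and at 18.4% and 66% for Crabp1, in a list of another length. The genes most like Cyp26c1 in the ranks of their best peaks at both stages were Pitpnm2, Zfp628 and Nat14, at 1.83 to 2.87 percentile points, and those most like Crabp1 were Snx31, Rnf2 and Exosc2, at 0.621 to 2.24 points. This likeness rests on 1 value per stage and gene. The E10.5 value used for Crabp1 was that of the peak over the start of Dnaja4, not of the peak on its own 5′ end. The E9.5 value used for Cyp26c1 was that of the peak in an Exoc6 intron. Zfp628 and Nat14 had the same values at both stages.

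**Figure D5:**
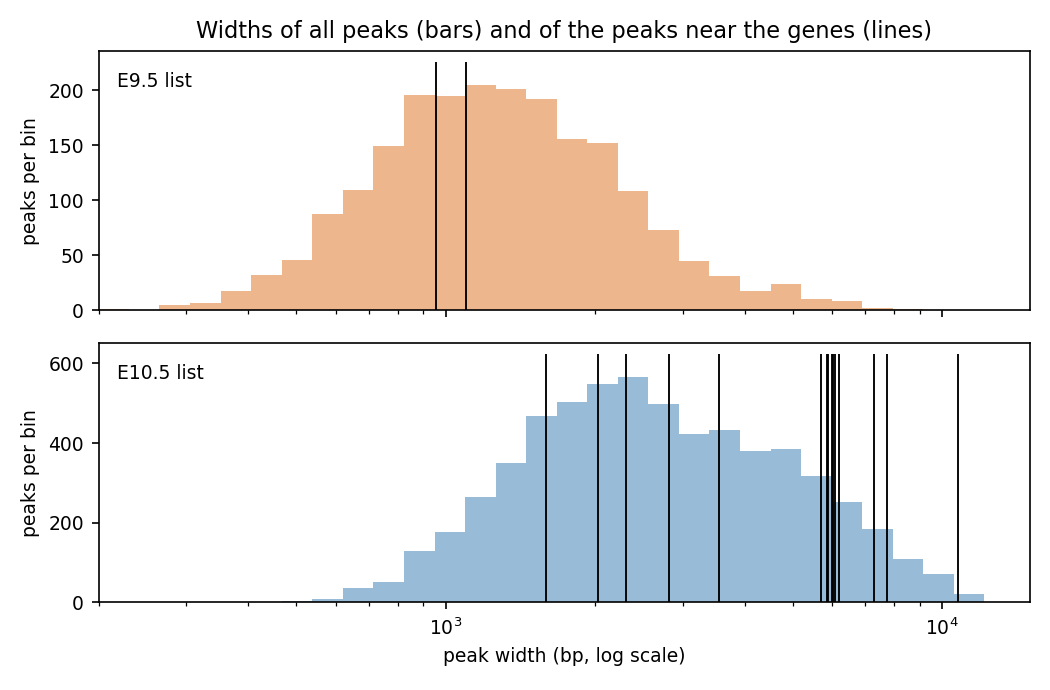
Number of peaks per width bin (vertical axis) by peak width in bp (horizontal axis, log scale) for the E9.5 list (top) and the E10.5 list (bottom), with a black line at the width of each peak near a gene of the set. At E10.5, 12 of the 15 lines lie above the list median of 2552 bp.

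The E10.5 peaks near these genes were wide, as the plot of peak widths shows. Their median width was 5888 bp against 2552 bp for the list, and 12 of the 15 were wider than that median, the exceptions being both peaks of the Cyp26a1 and Cyp26c1 pair and the upstream peak of Crabp1. The E9.5 peaks, at 957 and 1100 bp, were narrower than the median of their list. GC content was close to that of the list, with a median of 54.5% against 53.1%, and the centre lay within a gene for 11 of 15, beside 69.8% of the list. By annotation the centres fell in introns for 5 peaks, in UTRs for 4, in coding exons for 2 and in intergenic sequence for 4, and among all 6185 peaks of the list for 2703, 754, 706 and 1867, respectively. A transcript start lay in 6 of the 15 peaks, beside 46.2% of the list. For 9 of the 15 the nearest protein-coding 5′ end was that of a gene of the set. As the 15 were collected for lying near these genes, no share of the list can stand beside this count. The remaining 6 were nearest to Wipf2, Gjd3, Zfp740, Dnaja4, Nes and Bcan, and of these only the peak nearest to Gjd3 overlapped a gene of the set, as it is the one over the 3′ end of Rara.

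In windows of the same length, the peaks near these genes held SMAD letters at shares near those of all peaks of their list. In the 300 bp around the centre, CAGAC was found in 8 of the 15 E10.5 peaks, beside 53.2% of the list, CAGACC in 3, beside 19.7%, GGCGCC in 1, beside 13.1%, and a direct repeat of any of the 3 spacings in 0, beside 0.534%. The palindrome GTCTAGAC was in none of the 15 over the whole peak, beside 3.62% of the list. Over whole peaks, CAGACC was in 14 of 15, beside 79.5%, GGCGCC in 8, beside 44%, and a direct repeat in 3, beside 6.37%, and wider peaks offer more sequence for a match. Per kb, the median density of CAGAC was 3.24 in the 15 and 2.74 in the list. Both E9.5 peaks held CAGAC in the 300 bp window, beside 60.6% of their list, and neither held CAGACC or GGCGCC anywhere, letters found in 58.2% and 26.1% of whole E9.5 peaks.

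The RefSeq promoter table (250 bases before to 50 after the start) held 14 promoters for 9 of the 10 genes, all found at 1 place in mm9. The 10740 bp wide E10.5 peak of Rara alone covered 3 Rara promoters, and the Crabp1 promoter lay in the E10.5 peak on its 5′ end. No other promoter of the 14 lay in a peak. The share of all promoters of the table in a peak was not computed, so this describes single peaks and is no count to be compared. CAGACC was found in the promoter of Cyp26b1 and in the inner one of Rxra, beside 16.5% of all promoters, and both were outside peaks. Crabp2 was not matched in this table.

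Among 16 further genes of retinoid metabolism and signalling, peaks on the 5′ end and overlapping pairs of peaks were found, and no difference from the 10 was tested. These genes were Rdh10, Dhrs3, Aldh1a1 and Aldh1a3 (enzymes), Stra6, Rbp4 and Fabp5 (uptake and transport), Rxrb, Rxrg, Nr2f1 and Nr2f2 (receptors), and Ncor1, Ncoa1, Ncoa2, Ncoa3 and Nrip1 (receptor cofactors). At E9.5, 7 of the 16 had a peak within 100 kb, beside 20.5% of protein-coding genes, at E10.5 13 had one, beside 52.9%, and 5 had peaks at both stages, beside 14.6%. Peak centres within 5 kb of the 5′ end were present for 3 genes at E9.5, beside 2.64%, and for 6 at E10.5, beside 13%. Overlapping pairs were found for 3 of the 16, beside 5.51%, all among the 5 with both stages. For Ncoa1, a coactivator of nuclear receptors, the pair sat on the 5′ end with ranks 476 (E9.5) and 677 (E10.5), and for the related Ncoa2 it did so with ranks 1019 and 2303. For Rxrb the pair lay 88.9 and 88.7 kb away, over a UTR of Brd2, whose 5′ end was the nearest, with ranks 620 and 327. The corepressor gene Ncor1 had separate peaks, 51.6 kb upstream at E9.5 (rank 1233) and 85.3 kb downstream at E10.5 (rank 4402). Nrip1, a ligand-dependent corepressor, had an E9.5 peak 80 kb upstream (rank 1249) and an E10.5 peak 0.76 kb from its 5′ end. The latter had rank 94 and a score of 154, above that of any peak within 100 kb of the 10 genes. Only Aldh1a1 had none at either stage.

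Chosen after their values were seen, 2 of these genes stand beside the synthesis step that Aldh1a2 completes. Rdh10, which makes the retinaldehyde that ALDH1A2 uses, had an E10.5 peak 0.313 kb upstream of its 5′ end with a score of 104 and rank 433. Dhrs3, which reduces retinaldehyde back to retinol, had one 0.092 kb downstream of its 5′ end with rank 2225. A peak centre within 5 kb of the 5′ end was present for 13% of protein-coding genes at E10.5. The other enzymes among the 16, Aldh1a1 and Aldh1a3, had no E10.5 peak within 100 kb, the nearest being 670 and 174 kb away. Aldh1a3 had an E9.5 peak 56.3 kb upstream of its 5′ end, with rank 1692.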

How the data were processed

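SMAD4 ChIP-seq and input samples of 2 stages were processed by the authors: reads were trimmed, aligned to mm9 with Bowtie 1.1.0 (unique matches), and peaks were called with MACS 1.4 in each replicate against its input and combined with MSPC. Only regions called in both replicates stayed in the lists. Per the methods of the study, a combined peak carries the best MACS p-value of its replicate calls. The deposited score of each peak names no unit that ties it to this p-value, so it was used only within a list, for ranks and for score minimums of 50 and 100. The members and lists were chosen with earlier results of these data known. Some genes of the list of further pathway genes are not reported here. Samples were grouped by title. Peak centres were set against GENCODE vM1 genes, features and the mm9 sequence (1-based) with Python 3.11.15, NumPy 2.4.6 and pandas 2.3.3. Overlap meant at least 1 bp. RefSeq promoters (GRCm38.p6) were placed in mm9 by exact match. The script was checked on simulated peaks and planted motifs. Genes given with values by rule were all 10 members, further pathway genes with peaks at both stages, the 3 genes most like a member with both, and the gene with the 5′ end nearest each peak. Rdh10 and Dhrs3 were added after their values were seen, and Aldh1a1 and Aldh1a3 were then set beside them. No test was made. The alternatives were the distance, the 5′ end used, peak edges, the nearest gene, score minimums, a shortened E10.5 list, the overlap rule and the motif window.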

Additional observations from a re-analysis of the deposited data

How the results depend on the processing

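No paired analysis was possible because the replicates had been combined before the lists were made, and for the same reason no replicate could be left out. The result that held under every distance tried was that 8 of the 10 genes had an E10.5 peak. Within 50 kb, 1 gene had an E9.5 peak (1 peak), beside 11.4% of protein-coding genes (37.8% at E10.5), since the Cyp26c1 peak lies 99.9 kb away. Within 250 kb, 5 genes had an E9.5 peak (5 peaks), E10.5 peaks numbered 29 and 1 gene had an overlapping pair, while the share of all protein-coding genes with a peak rose to 40.6% and 72%. When a peak counted only for the nearest protein-coding gene, 1 gene had an E9.5 peak (1 peak) and 9 E10.5 peaks remained, near 6 genes, beside 6.78% and 20.4% of protein-coding genes. The lower number of neighbouring genes of the set, a median of 1 against 3 within 100 kb, was not accounted for. At a score of 100 or more, 0 genes and 0 peaks were left at either stage, beside 3.03% and 8.77% of protein-coding genes. With the E10.5 list cut to its best 2073 peaks, 6 E10.5 peaks were left, near 7 genes, beside 28% of protein-coding genes. Over whole peaks, CAGAC was in 14 of the 15 E10.5 peaks, GGCGCC in 8 (2 within 500 bp) and a direct repeat in 3, and the wider search itself raises these counts. With all transcript starts, 3 genes had an E9.5 peak, Rarb being added, beside 21.8%. Depth is unknown and the E10.5 list is longer, so a difference in counts between the stages does not show a difference in binding.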
